A study of Mus musculus with 190 samples.

Results

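The 10 genes described here encode enzymes and receptors of the leukotriene, prostaglandin and platelet-activating factor pathways in mouse blood. They are Alox5, Alox5ap, Lta4h, Ltc4s, Ltb4r1, Ptgs1, Ptgs2, Hpgds, Ptgdr2 and Ptafr, and they were taken by gene name from a table of 55414 genes. Of the 10 genes, 9 passed the filter on low counts, as did 18192 genes in all. Ltc4s did not pass and is described by its counts only.

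RNA of whole blood was sequenced from male wild-type (WT) NC/Nga mice, which are known for skin inflammation like that of atopic dermatitis when not kept pathogen-free. The 180 conventional libraries came from 9 cohorts of 10 libraries per sampling. Cohorts 1 to 9 were first sampled on days 2, 5, 9, 12, 16, 19, 23, 26 and 30 in that order. Their second sampling fell on day 44 for cohorts 1, 3, 5, 7 and 9 and on day 40 for cohorts 2, 4, 6 and 8. The control group was kept specific-pathogen-free (SPF) and gave 5 libraries on day 16 and 5 on day 44, each with a dermatitis score of 0. All libraries shared strain, sex and genotype, while neither the age of the mice nor the meaning of day 0 is stated in the labels. In the conventional mice, 83 of 90 libraries of the second sampling had a dermatitis score above 0, against 32 of 90 of the first sampling. A score of 2 or more was recorded for 67 of 90 libraries of the second sampling and 11 of 90 of the first. The design asks how the blood transcriptome differs before and after dermatitis appears and with its severity.

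Leukotrienes and prostaglandins are lipid mediators made from arachidonic acid. The 5-lipoxygenase Alox5, helped by its membrane partner Alox5ap, makes leukotriene A4, which Lta4h turns into the neutrophil attractant leukotriene B4 and Ltc4s into the cysteinyl leukotriene C4. The cyclooxygenases Ptgs1 and Ptgs2 start the prostaglandin branch, in which Hpgds makes prostaglandin D2. Neutrophils, platelets, basophils and eosinophils are the blood cells best known for these reactions, and leukotriene B4 and prostaglandin D2 are studied as mediators of itch and leukocyte recruitment in allergic skin.

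The stretches of 250 bases before the transcription start are shown for 3 genes that rose together (Alox5, Ltb4r1 and Ptafr) and for Lta4h, which stayed near a constant level in counts scaled to library size. They are from RefSeq on build GRCm38.p6, run 5′ to 3′ on the gene's strand, and carry in capitals each match to the motif GAGGAA, a binding core of ETS factors such as PU.1, on either strand (TTCCTC is its reverse complement).
Alox5, chr6:116461179-116461428, minus strand: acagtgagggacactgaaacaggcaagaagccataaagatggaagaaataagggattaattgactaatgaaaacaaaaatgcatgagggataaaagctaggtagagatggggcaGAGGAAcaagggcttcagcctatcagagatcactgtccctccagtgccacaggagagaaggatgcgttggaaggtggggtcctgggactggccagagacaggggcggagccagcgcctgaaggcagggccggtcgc
Ltb4r1, chr14:55765712-55765961, plus strand: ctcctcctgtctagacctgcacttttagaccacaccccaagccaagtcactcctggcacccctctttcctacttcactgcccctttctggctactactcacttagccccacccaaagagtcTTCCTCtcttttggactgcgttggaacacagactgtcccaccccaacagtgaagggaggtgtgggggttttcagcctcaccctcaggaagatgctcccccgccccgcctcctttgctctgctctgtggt
Ptafr, chr4:132563817-132564066, plus strand: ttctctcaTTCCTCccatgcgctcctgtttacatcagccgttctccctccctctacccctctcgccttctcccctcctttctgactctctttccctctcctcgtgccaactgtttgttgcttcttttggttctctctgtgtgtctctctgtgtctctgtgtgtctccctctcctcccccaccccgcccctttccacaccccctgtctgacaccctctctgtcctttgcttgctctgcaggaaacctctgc
Lta4h, chr10:93453146-93453395, plus strand: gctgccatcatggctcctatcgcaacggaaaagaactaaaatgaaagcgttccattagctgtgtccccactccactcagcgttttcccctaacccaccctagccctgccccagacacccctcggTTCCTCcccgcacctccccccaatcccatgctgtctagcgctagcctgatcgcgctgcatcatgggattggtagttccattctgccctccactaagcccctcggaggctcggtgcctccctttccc
The RefSeq promoter table held 9 of the 10 genes, and Alox5ap is named only. GAGGAA was present on either strand in 8 of these 9 windows, at 9 places in all, and in 23.3% of all 32851 windows of the same length. The window of Ltc4s held no match. None of 4 other motifs, searched on both strands, had a match in the 9 windows. They were the site of GATA-family factors, AGATAA, found in 10.0% of all windows, and the first letters of the site of NF-kB, GGGANTT, found in 14.4%. The core of the cAMP response element, TGACGT, was found in 6.5% of all windows, and the TATA box, spelled TATAAA, in 12.4%. The window of Lta4h held GAGGAA as did those of Alox5, Ltb4r1 and Ptafr. The first bases after the start were found in a transcript of the gene in the reference annotation for 8 of the 9 genes but not for Lta4h, so its window may not lie directly before a start of that annotation.

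Per transcript length, Alox5ap was by far the most abundant of the 10 genes in blood. By the deposited TPM (a level per transcript length), the median over 190 libraries was 28.1 for Alox5ap, 2.64 for Lta4h and 2.47 for Ptgs1. It was 1.51 TPM for Alox5, 1.25 for Ptafr and 0.502 for Ltb4r1. Alox5ap lay above Lta4h in all 190 libraries, while Lta4h lay above Ptgs1 in 49.5% of them, so the order of those neighbours was not separated. Ptgs1 was above Alox5 in 83.7% of libraries, Alox5 above Ptafr in 73.2% and Ptafr above Ltb4r1 in 98.4%. The remaining genes were scarce, with a median of 0.0350 TPM for Hpgds, 0.0230 for Ptgs2, 0.0155 for Ptgdr2 and 0 for Ltc4s. Hpgds was above Ptgs2 in 60.5% of libraries and Ptgs2 above Ptgdr2 in 65.3%, so neighbours among these were not separated.

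Below, levels are CPM, counts scaled to library sizes that were normalised by the trimmed mean of M values (TMM), and differences are log2 differences with their standard error (SE) from an edgeR quasi-likelihood fit over all genes. The threshold for a call was 0.05 on the Benjamini-Hochberg adjusted p. Total counts per library ranged from 21444129 to 71967299 with a median of 36448181. Globin genes took a median of 3.58% of counts in cohorts 1 to 4, 6.84% in cohort 5, 7.83% in cohorts 6 to 9 and 3.59% in the SPF libraries. Mitochondrial rRNA took 6.92%, 14.7%, 15.4% and 7.38% in that order. On day 16 the globin medians were 3.72% in cohort 5 and 3.78% in SPF blood, and those of mitochondrial rRNA 10.1% and 7.30%. The SPF library of day 16, replicate 3, had 45.3% globin. Each first-sampling day belongs to 1 cohort and SPF housing is 1 cohort, so day and cohort, and housing and cohort, cannot be told apart. In whole blood, fewer cells of a type and less RNA per cell cannot be told apart either. Nothing in the labels ties a numbered library to the same mouse at both samplings, and p-values measure the spread between these libraries only.

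Alox5, Alox5ap, Ltb4r1 and Ptafr rose in blood of conventional mice: over the first-sampling days, in the second against the first sampling, and against SPF mice on day 44. Over the first-sampling days the course of Alox5ap differed, with medians between 61.5 and 81.3 CPM up to day 19. Lta4h, the enzyme between Alox5 and leukotriene B4, stayed between 12.9 and 16.8 CPM in the medians of all 18 conventional groups and both SPF groups. This near-constant level holds on the CPM scale. By the deposited TPM, group medians ran from 1.55 to 3.93 for Lta4h, 16.4 to 46.7 for Alox5ap and 0.530 to 2.67 for Alox5. In the second against the first sampling, with cohort as a term, 6 of the 9 tested genes rose and 1 fell, where 62.1% of all tested genes were called (31.4% higher and 30.6% lower). In conventional against SPF blood on day 44, 4 of 9 rose and none fell, where 19.7% of all genes were called (10.7% higher and 9.04% lower). Over the first-sampling days, 5 of 9 rose and 1 fell, where 52.3% of all genes were called (26.5% higher and 25.8% lower). The median log2 difference of the 9 genes was 0.43 in the second against the first sampling, where that of all genes was -0.02. On day 44 it was 0.90 and for the trend 0.29, against -0.00 for all genes in both.

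**Figure D1:**
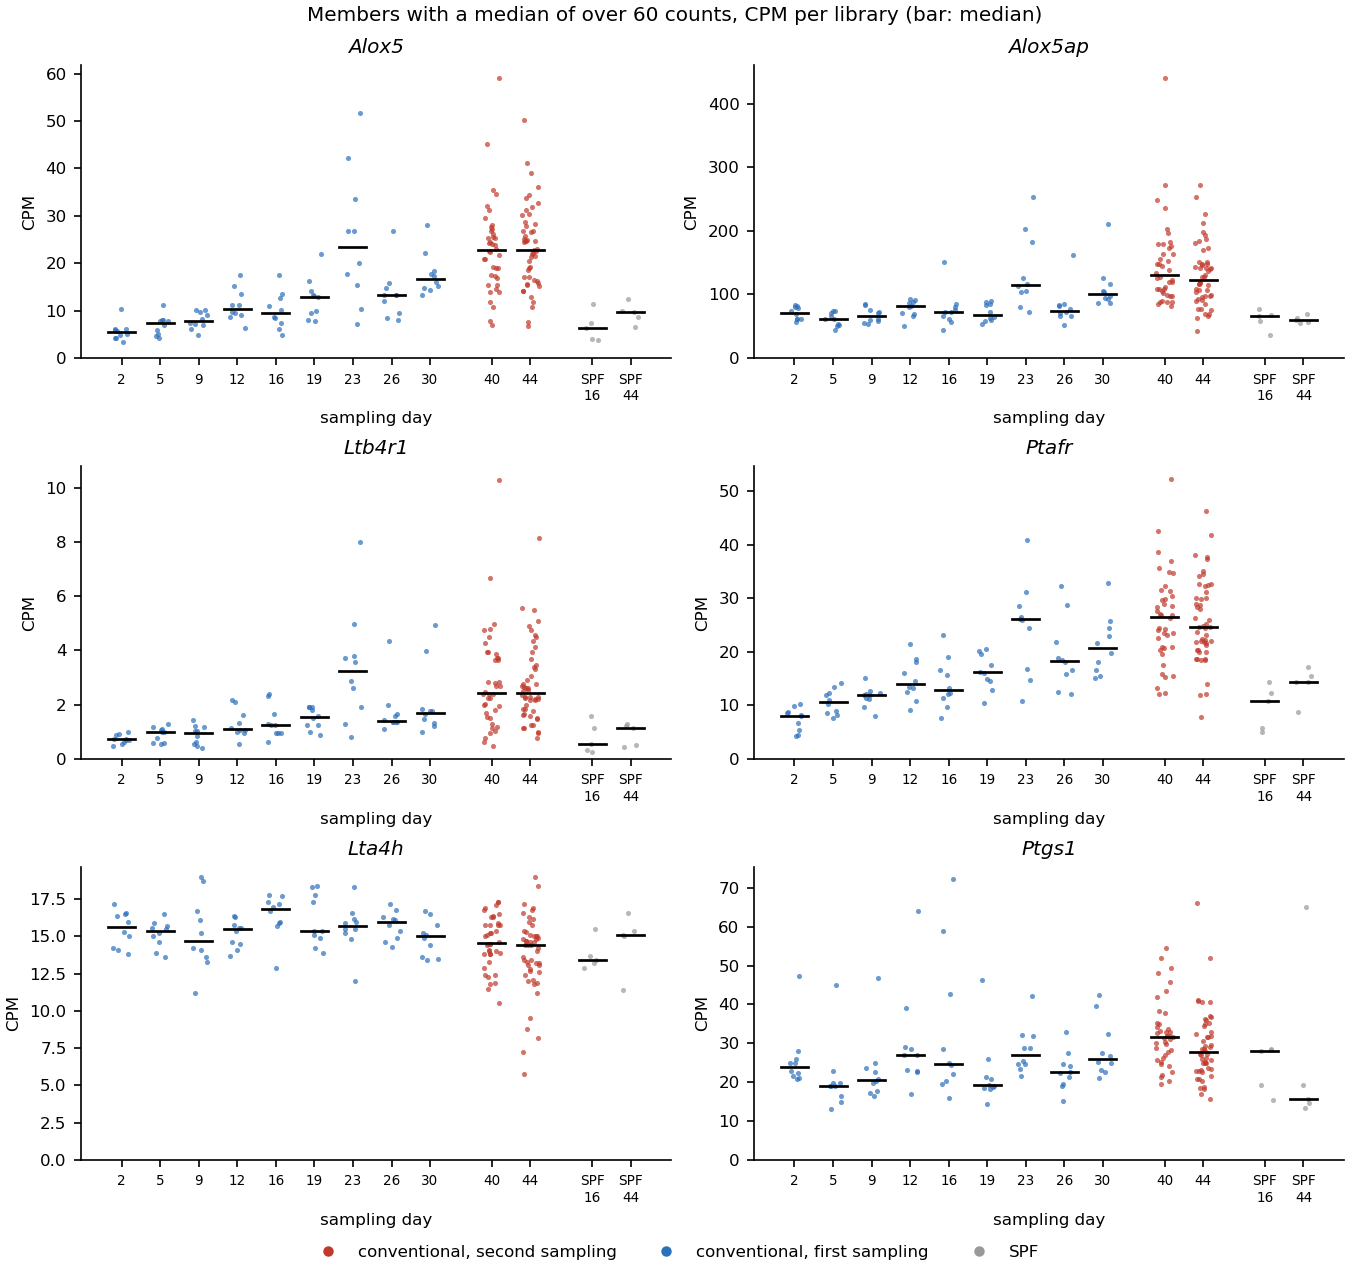
CPM per library (y axis) by sampling day (x axis) for Alox5, Alox5ap, Ltb4r1, Ptafr, Lta4h and Ptgs1, with conventional libraries of the second sampling in red, those of the first sampling in blue and SPF libraries in grey; bars are medians of the libraries on that day. Alox5 climbs to a median of 23.4 CPM on day 23, while Lta4h stays between 5.74 and 19.0 CPM in all 190 libraries.

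Alox5 (ENSMUSG00000025701.13, GRCm39 chromosome 6, 116387038 to 116438139, minus strand) encodes 5-lipoxygenase. Its first-sampling medians in cohorts 1 to 9 were 5.42, 7.41, 7.87, 10.4, 9.43, 12.9, 23.4, 13.3 and 16.7 CPM on days 2, 5, 9, 12, 16, 19, 23, 26 and 30 in that order. The highest single values stood in cohort 7 on day 23, where libraries ran from 7.23 to 51.7 CPM. The rise over the first sampling was 0.65 ± 0.07 log2 per 10 days (SE, 90 libraries, edgeR adjusted p = 4.08e-13), and 0.50 among the 58 libraries with a score of 0 (adjusted p = 2.16e-06). Within cohorts 1 to 4 alone it was 0.93 (adjusted p = 4.57e-05), and within cohorts 6 to 9 it was 0.16 (adjusted p = 0.858).

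In the second sampling, Alox5 medians lay between 19.1 and 26.0 CPM in the 9 cohorts, and each was above the first-sampling median of its cohort. Cohort 1 had a median of 26.0 CPM in the second sampling (6.86 to 41.2), against 5.42 in the first (3.44 to 10.3). Cohort 7 had 23.6 CPM in the second sampling against 23.4 in the first. Libraries of both samplings did not overlap in cohort 3 and overlapped in the other cohorts. The second sampling was higher by 1.06 ± 0.10 (SE, 180 libraries, edgeR adjusted p = 2.78e-19), with 1.63 within cohorts 1 to 4 (adjusted p = 1.77e-20) and 0.47 within cohorts 6 to 9 (adjusted p = 0.0114).

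Against SPF mice on day 44, Alox5 in the 50 conventional libraries ranged from 6.86 to 50.3 CPM with a median of 22.8, against 8.65, 9.90, 12.5, 6.51 and 9.61 CPM in SPF replicates 1 to 5. Of the conventional libraries, 46 of 50 lay above the highest SPF library. The difference was 1.31 ± 0.28 (SE, edgeR adjusted p = 6.32e-04), and 1.24 with cohort 5 alone (adjusted p = 0.00689). On day 16 Alox5 ran from 4.86 to 17.5 CPM in cohort 5 with a median of 9.43, against 4.06, 6.40, 7.38, 3.87 and 11.5 CPM in SPF replicates 1 to 5. That difference, 0.59 ± 0.30, did not pass the test (adjusted p = 0.418), but with the globin and mitochondrial rRNA shares as covariates it was 1.10 and was called (adjusted p = 0.0368). The fit with these shares also called more of all genes than the main fit. It held SPF replicate 3 at 45.3% globin, where the other SPF libraries of day 16 had 2.09 to 4.52%.

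Alox5ap (ENSMUSG00000060063.10, GRCm39 chromosome 5, 149201577 to 149224963, plus strand), the membrane protein that presents arachidonic acid to 5-lipoxygenase, also rose over the first sampling. Its first-sampling medians stayed between 61.5 and 81.3 CPM on days 2 to 19, reached 114.5 on day 23 and were 74.6 on day 26 and 100.4 on day 30. The slope was 0.29 ± 0.05 per 10 days (SE, edgeR adjusted p = 4.07e-07), 0.12 among libraries with a score of 0 (adjusted p = 0.0485), 0.17 within cohorts 1 to 4 (adjusted p = 0.236) and 0.34 within cohorts 6 to 9 (adjusted p = 0.509). Second-sampling medians were between 97.9 and 164.2 CPM and exceeded the first in 8 of 9 cohorts. The exception was cohort 7, with 97.9 CPM in the second sampling against 114.5 in the first.

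The second sampling was higher in Alox5ap by 0.76 ± 0.08 (SE, edgeR adjusted p = 3.93e-16), by 1.18 within cohorts 1 to 4 and by 0.34 within cohorts 6 to 9 (adjusted p = 0.0225). On day 44 the conventional libraries ran from 43 to 271.3 CPM with a median of 123.4, against 69.4, 54.5, 62.3, 60.3 and 55.9 CPM in SPF replicates 1 to 5. The SPF libraries stood within a narrow band, with 46 of 50 conventional libraries above it and 1 below. The difference was 1.11 ± 0.27 (SE, edgeR adjusted p = 0.00247). On day 16 the difference was 0.32 ± 0.25 (adjusted p = 0.663).

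Lta4h (ENSMUSG00000015889.9, GRCm39 chromosome 10, 93289273 to 93320737, plus strand), the hydrolase that completes leukotriene B4, fell slightly between samplings. Over the first sampling its slope was 0.00 ± 0.02 per 10 days (edgeR adjusted p = 0.852). The second sampling had a median of 14.5 CPM (5.74 to 19.0) against 15.6 in the first (11.2 to 19.0), and was lower in 8 of 9 cohort medians, all but cohort 6. The difference was -0.13 ± 0.03 (SE, edgeR adjusted p = 5.80e-05), a fold of 1.10. Against SPF mice Lta4h differed by -0.09 ± 0.14 on day 44 (adjusted p = 0.690) and by 0.26 ± 0.11 on day 16 (adjusted p = 0.273), where 9 of 10 conventional libraries were above the highest SPF library.

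Ltc4s (ENSMUSG00000020377.16, GRCm39 chromosome 11, 50127288 to 50129443, minus strand), the synthase of leukotriene C4, was barely detected. It had 70 counts over all 190 libraries, in 28 of them, with at most 11 in any. In the other libraries a count of 0 allows up to 3 counts (counting error only). Scaled to total counts without TMM, 3 counts are 0.0417 to 0.14 CPM by depth. This range is not on the TMM scale of the levels given here, so it sets no upper limit for them. The highest level was 0.297 CPM in the second sampling and 0.207 in the first, and 0.0255 in SPF blood. Ltc4s shares 1664 bases with a noncoding gene on the opposite strand, Gm26542, which had 587 counts, and whether the counting used strand is not stated. Ltc4s was not tested for differences.

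Ltb4r1 (ENSMUSG00000046908.6, GRCm39 chromosome 14, 56003419 to 56005951, plus strand), the high-affinity leukotriene B4 receptor on neutrophils and other leukocytes, rose over the first-sampling days. First-sampling medians over the same 9 days were 0.718, 1.00, 0.943, 1.09, 1.24, 1.55, 3.23, 1.41 and 1.71 CPM. The slope was 0.65 ± 0.08 per 10 days (SE, edgeR adjusted p = 4.88e-11), 0.70 within cohorts 1 to 4 (adjusted p = 0.0121) and 0.12 within cohorts 6 to 9 (adjusted p = 0.910). Second-sampling medians were 1.95 to 3.19 CPM and exceeded the first in 8 of 9 cohorts. Cohort 7 again was the exception, with 1.95 CPM in the second sampling against 3.23 in the first.

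Between samplings Ltb4r1 differed by 1.01 ± 0.12 (SE, edgeR adjusted p = 5.42e-13), by 1.66 within cohorts 1 to 4 (adjusted p = 4.50e-16) and by 0.36 within cohorts 6 to 9 (adjusted p = 0.150). On day 44 its conventional libraries ran from 0.774 to 8.15 CPM with a median of 2.44, against 1.15, 1.28, 1.22, 0.421 and 0.501 CPM in SPF replicates 1 to 5. Of the conventional libraries, 43 of 50 were above the highest SPF library and none below the lowest. The difference, 1.60 ± 0.38 (SE, edgeR adjusted p = 0.00230), was the largest of the 9 genes on that day, and Ltb4r1 was at 0.82 ± 0.44 on day 16 (adjusted p = 0.444). With the globin and mitochondrial rRNA shares as covariates, the day 16 value was 1.65 and was called (adjusted p = 0.0369), with the same limits as for Alox5.

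Ptafr (ENSMUSG00000056529.8, GRCm39 chromosome 4, 132291378 to 132309994, plus strand), the receptor of platelet-activating factor on neutrophils and other cells, rose over the days too. First-sampling medians over those days were 8.07, 10.7, 12.0, 14, 12.8, 16.2, 26.0, 18.4 and 20.8 CPM. The slope was 0.52 ± 0.05 per 10 days (SE, edgeR adjusted p = 3.41e-15), 0.50 among libraries with a score of 0 (adjusted p = 1.87e-07), 0.89 within cohorts 1 to 4 (adjusted p = 1.07e-05) and 0.23 within cohorts 6 to 9 (adjusted p = 0.603). In the second sampling the 9 medians lay between 22.8 and 27.9 CPM, a narrower band than in the first. The second median was above the first in 8 of 9 cohorts, all but cohort 7, with 25.4 CPM in the second sampling against 26.0 in the first. The samplings did not overlap in cohort 1, with 12.1 to 38.1 CPM in the second against 4.26 to 10.2 in the first, nor in cohort 3.

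Ptafr was higher in the second sampling by 0.82 ± 0.08 (SE, edgeR adjusted p = 6.07e-19), by 1.27 within cohorts 1 to 4 and by 0.34 within cohorts 6 to 9 (adjusted p = 0.0129). On day 44 conventional libraries ran from 7.92 to 46.3 CPM with a median of 24.6, against 14.3, 17.1, 14.4, 8.81 and 15.4 CPM in SPF replicates 1 to 5. Again 46 of 50 conventional libraries were above the highest SPF library and 1 below the lowest. The difference was 0.88 ± 0.22 (SE, edgeR adjusted p = 0.00405), and 0.55 ± 0.26 on day 16 (adjusted p = 0.366).

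**Figure D2:**
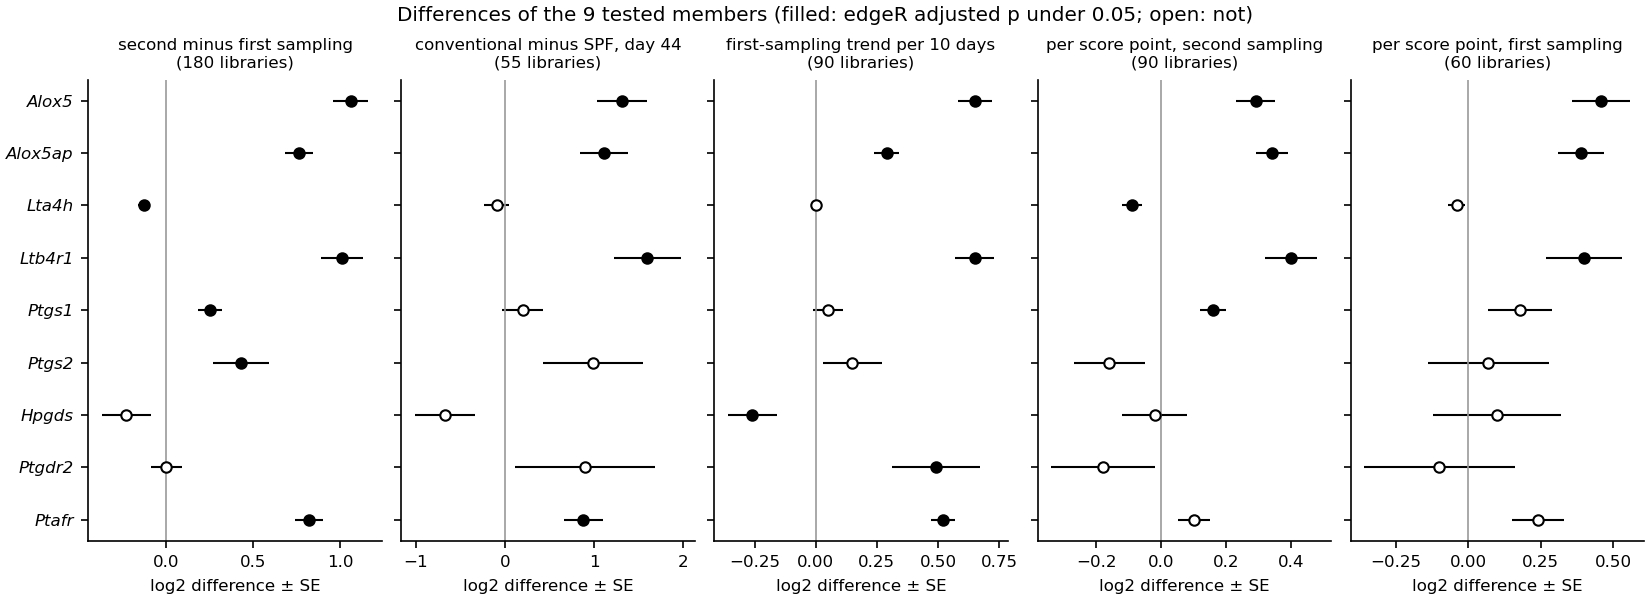
Log2 difference ± SE (x axis) of the 9 tested genes (y axis) in 5 comparisons, filled where the edgeR adjusted p is under 0.05. Alox5, Alox5ap and Ltb4r1 are filled and positive in all 5 panels, Ptafr in 3, and Lta4h is filled and negative in 2.

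The cyclooxygenases differed less between the samplings by value. Ptgs1 (ENSMUSG00000047250.14, GRCm39 chromosome 2, 36120438 to 36142284, plus strand), the constitutive cyclooxygenase that supplies thromboxane in platelets, did not pass for a day trend in the first sampling (0.05 ± 0.06 per 10 days, edgeR adjusted p = 0.457). Its medians were 29.6 CPM in the second sampling (15.7 to 66) and 23.0 in the first (13 to 72.4), and the second was higher in 8 of 9 cohorts, cohort 7 excepted. The difference was 0.25 ± 0.07 (SE, edgeR adjusted p = 8.00e-04), 0.39 within cohorts 1 to 4 (adjusted p = 3.26e-04) and 0.21 within cohorts 6 to 9 (adjusted p = 0.0857). The summed level of 11 platelet marker genes had a median of 3600 CPM in the second sampling and 2930 in the first, and 11 of the 11 rose; its part in the Ptgs1 difference was not tested. On day 44 Ptgs1 ran from 15.7 to 66 CPM in conventional libraries, against 19.2, 14.6, 65, 15.6 and 13.4 CPM in SPF replicates 1 to 5. SPF replicate 3 stood far above the others and the difference was 0.20 ± 0.23 (adjusted p = 0.570). Without SPF replicate 3 it was 0.90 and was called (adjusted p = 0.00648).

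Ptgs2 (ENSMUSG00000032487.9, GRCm39 chromosome 1, 149975782 to 149983978, plus strand), the inducible cyclooxygenase, had a median of 17 counts per library. Its level had a median of 0.539 CPM in the second sampling (0 to 3.64) and 0.404 in the first (0.0203 to 4.31), and the second was higher in 7 of 9 cohorts. The difference was 0.43 ± 0.16 (SE, edgeR adjusted p = 0.0107), and 0.30 within cohorts 1 to 4 (adjusted p = 0.322) and 0.37 within cohorts 6 to 9 (adjusted p = 0.203), neither of them called. The first-sampling slope was 0.15 ± 0.12 per 10 days (adjusted p = 0.308), and 0.47 without day 2 (adjusted p = 0.00141), where 1 library had 4.31 CPM.

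On day 16, Ptgs2 was the 1 gene of the 9 that was called between conventional and SPF blood, where 0.473% of all genes were called (0.319% higher and 0.154% lower). Conventional libraries ran from 0.157 to 0.719 CPM with a median of 0.292, against 0.601, 0.357, 0.347, 0.514 and 6.23 CPM in SPF replicates 1 to 5. SPF replicate 5 stood far above every other library of that day, both groups overlapped, and 6 of 10 conventional libraries lay below the lowest SPF library. The difference was -2.16 ± 0.52 (SE, edgeR adjusted p = 0.0490). Without SPF replicate 5 it was -0.34 (adjusted p = 0.892), and without SPF replicate 4 it was -2.38 (adjusted p = 0.0621), so the call rested on single libraries. The 9 genes had a median of 0.46 on that day, against 0.05 for all genes.

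Hpgds (ENSMUSG00000029919.6, GRCm39 chromosome 6, 65094277 to 65121892, minus strand), the hematopoietic synthase of prostaglandin D2, was scarce and went the other way. First-sampling medians were 0.774 CPM on day 2 and 0.758 on day 5, the lowest was 0.193 on day 23, and the value on day 30 was 0.498. On day 23, 2 of 10 libraries had no count. The slope was -0.26 ± 0.10 per 10 days (SE, edgeR adjusted p = 0.0214), -0.50 within cohorts 1 to 4 (adjusted p = 0.153) and -0.13 within cohorts 6 to 9 (adjusted p = 0.919). It was not called without day 2 (-0.22, adjusted p = 0.135), day 5 (-0.23, adjusted p = 0.0882) or day 23 (-0.18, adjusted p = 0.0553).

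The second sampling of Hpgds had a median of 0.437 CPM against 0.566 in the first, a difference of -0.23 ± 0.14 (edgeR adjusted p = 0.138), which was called at -0.59 within cohorts 1 to 4 (adjusted p = 0.00225) and was 0.12 within cohorts 6 to 9 (adjusted p = 0.771). Without cohort 7 it was -0.36 and called (adjusted p = 0.00976). On day 44 conventional libraries ran from 0.0301 to 1.19 CPM with a median of 0.470, against 1.28, 0.483, 0.970, 0.866 and 0.705 CPM in SPF replicates 1 to 5. Of the conventional libraries, 26 of 50 lay below the lowest SPF library, and the difference of -0.67 ± 0.34 did not pass (adjusted p = 0.148). Hpgds shares 432 bases with a pseudogene on the opposite strand, Gm17147, which had 1625 counts where Hpgds had 4120.

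Ptgdr2 (ENSMUSG00000034117.4, GRCm39 chromosome 19, 10914524 to 10919875, plus strand), the prostaglandin D2 receptor of eosinophils, basophils and type 2 T cells, had a median of 5.00 counts per library and none in 27 of 190. In the first sampling its medians over the 9 days, from day 2 to day 30, were 0.0255, 0, 0.248, 0.279, 0.216, 0.0922, 0.242, 0.225 and 0.168 CPM. Days 2 and 5 stood below most later days, and the slope was 0.49 ± 0.18 per 10 days (SE, edgeR adjusted p = 0.0189). Without day 2 it was 0.26 (adjusted p = 0.300) and without day 5 it was 0.25 (adjusted p = 0.243), both not called. Within cohorts 1 to 4 the slope was 3.15 (adjusted p = 1.16e-04), and within cohorts 6 to 9 it was 0.24 (adjusted p = 0.868).

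On day 16 Ptgdr2 ran from 0.0225 to 0.377 CPM in cohort 5 with a median of 0.216, against 0.0325, 0, 0.0347, 0.0303 and 0.0242 CPM in SPF replicates 1 to 5. The SPF values came from 5 counts in all, and 8 of 10 conventional libraries were above the highest of them. The difference of 2.75 ± 0.92 did not pass the test over all genes (edgeR adjusted p = 0.155). On day 44 it was 0.90 ± 0.79 (adjusted p = 0.430), and between samplings Ptgdr2 did not pass either (adjusted p = 0.992). The summed level of 10 eosinophil marker genes on day 16 ran from 34.8 to 66.5 CPM in cohort 5 against 22.2 to 39.1 in SPF blood, with 3 of 9 tested genes higher. Its part in the Ptgdr2 values was not tested. Ptgdr2 shares 1031 bases with Ccdc86 on the opposite strand, which had 11236 counts against 1288 of Ptgdr2, so its level is uncertain if the counting ignored strand.

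**Figure D3:**
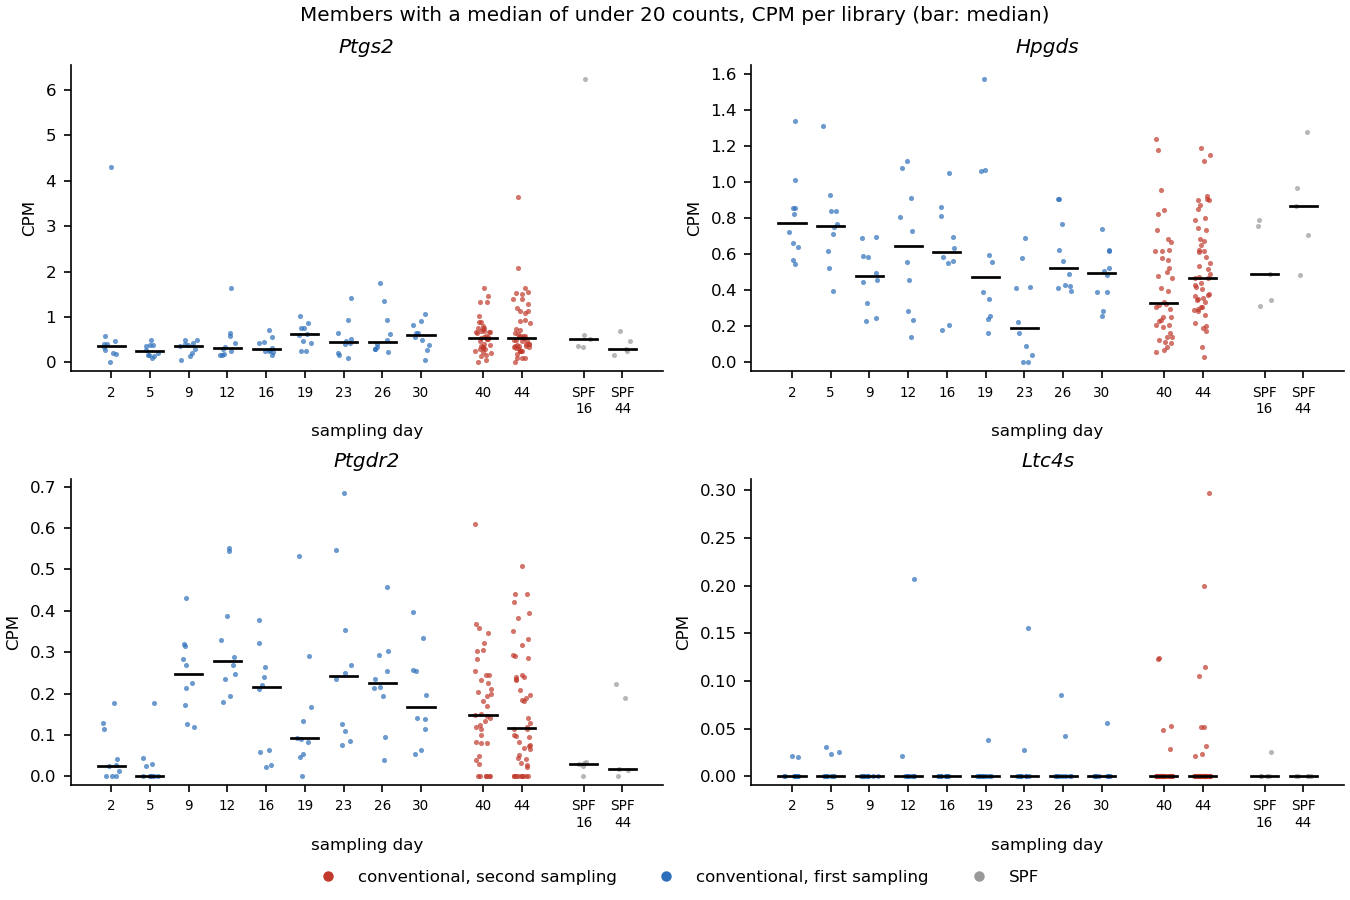
CPM per library (y axis) by sampling day (x axis) for Ptgs2, Hpgds, Ptgdr2 and Ltc4s, with conventional libraries of the second sampling in red, those of the first sampling in blue and SPF libraries in grey; bars are medians of the libraries on that day. The SPF library at 6.23 CPM of Ptgs2 on day 16 and the low Hpgds median of 0.193 CPM on day 23 stand out.

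The change from day 16 to day 44 was also compared between cohort 5 and the SPF group (30 libraries). Of the 9 genes none was called, and 0% of all genes were, by the edgeR test of the interaction. Its unadjusted p was under 0.05 for 1 of the 9 genes, Ptgs2, and 1880 of all genes, and DESeq2 called 50 genes in all and none of the 9, of which it left some without an adjusted p. Ptgs2 changed by 3.34 ± 0.80 more in conventional mice (adjusted p = 0.253), where SPF replicate 5 of day 16 enters. Alox5 changed by 0.64 ± 0.42 more (adjusted p = 0.607), Alox5ap by 0.70 ± 0.35 (adjusted p = 0.500) and Ltb4r1 by 0.82 ± 0.60 (adjusted p = 0.653). These intervals are wide, and a change that differs between housings was not shown for the 9 genes.

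Within the second sampling, more severe dermatitis went with more Alox5, Alox5ap, Ltb4r1 and Ptgs1 and with slightly less Lta4h. With cohort as a term, 4 of the 9 genes rose per score point and 1 fell, where 36.6% of all genes were called (18.9% higher and 17.7% lower), with a median slope of 0.10 against -0.02 for all genes. Alox5ap had medians of 74.8, 117.8, 106.7, 108.1 and 172.5 CPM at scores of 0, 0.5, 1, 2 and 3, and the 1 library with a score of 4 had 252.5 CPM. The step stood between scores of 2 (66.8 to 170 CPM, 27 libraries) and 3 (85.2 to 440 CPM, 39 libraries), with overlap. The slope of Alox5ap was 0.34 ± 0.05 per score point (SE, 90 libraries, edgeR adjusted p = 2.91e-07).

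Alox5 had medians of 11.9, 26.2, 19.1, 21.4 and 25.7 CPM at scores of 0, 0.5, 1, 2 and 3, with a slope of 0.29 ± 0.06 (edgeR adjusted p = 4.46e-05). Its median at 0.5 rested on 5 libraries and was above those at 1, 2 and 3. Ltb4r1 had medians of 1.14, 2.77, 1.80, 2.00 and 3.38 CPM in that order, with a slope of 0.40 ± 0.08 (adjusted p = 4.75e-05). Ptgs1 rose by 0.16 ± 0.04 per point (adjusted p = 0.00105), with medians of 22.6 CPM at a score of 0 and 32.9 at 3. Lta4h was at 16.2 CPM at a score of 0 and 13.3 at 3, a slope of -0.09 ± 0.03 (adjusted p = 0.00397).

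Ptafr, which rose over the days like Alox5, did not pass for severity in the second sampling (0.10 ± 0.05 per point, edgeR adjusted p = 0.110). Its medians there were 18.5 CPM at a score of 0, 34.5 at 0.5, 22.6 at 1, 24.5 at 2 and 26.3 at 3. Ptgs2, Hpgds and Ptgdr2 did not pass either, with slopes of -0.16 ± 0.11, -0.02 ± 0.10 and -0.18 ± 0.16. Within cohorts 1 to 4, 5 of the 9 genes were called, where 29.9% of all genes were. Within cohorts 6 to 9, 0 of all genes were called; there the slope was 0.30 for Alox5 (adjusted p = 0.156), 0.20 for Alox5ap (adjusted p = 0.195) and 0.29 for Ltb4r1 (adjusted p = 0.262).

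**Figure D4:**
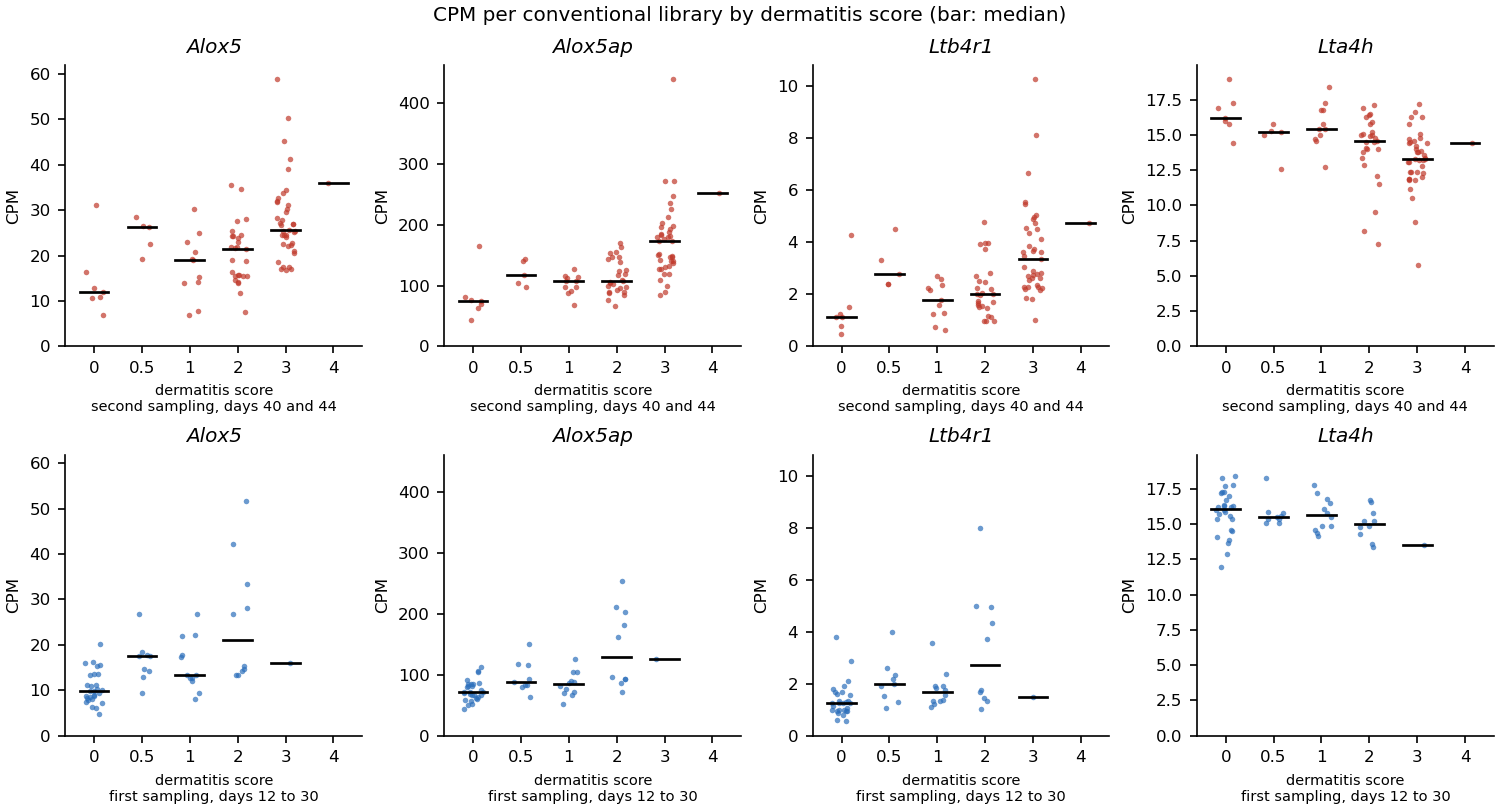
CPM per conventional library (y axis) by dermatitis score (x axis) for Alox5, Alox5ap, Ltb4r1 and Lta4h, in the second sampling (top row, red) and on days 12 to 30 of the first sampling (bottom row, blue); bars are medians. In the second sampling the Alox5ap median is 172.5 CPM at a score of 3 and 74.8 at 0, and that of Lta4h is 13.3 and 16.2 CPM.

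On days 12 to 30 of the first sampling, 3 genes of the leukotriene B4 route rose with the score. Of the 9 genes, 3 were called and all were higher, where 10.0% of all genes were called (6.18% higher and 3.85% lower), with a median slope of 0.18 against -0.01. Alox5 medians were 9.80 CPM at a score of 0, 17.5 at 0.5, 13.3 at 1 and 21 at 2, with a slope of 0.46 ± 0.10 per point (SE, 60 libraries, edgeR adjusted p = 0.00337). Alox5ap rose by 0.39 ± 0.08 (adjusted p = 0.00137) and Ltb4r1 by 0.40 ± 0.13 (adjusted p = 0.0323). The 10 libraries with a score of 2 ran from 13.4 to 51.7 CPM of Alox5 and overlapped the 28 with a score of 0, at 4.86 to 20.1 CPM. These calls rested on cohort 7: without it no gene of the whole table was called, and the slopes were 0.26 for Alox5 (adjusted p = 0.284), 0.28 for Alox5ap (adjusted p = 0.160) and 0.26 for Ltb4r1 (adjusted p = 0.416). Tested directly, no difference between the slopes of the second and first samplings was called for the 9 genes (0 called by edgeR, and 0% of all genes). Errors were large, as with -0.16 ± 0.12 for Alox5 and -0.24 ± 0.25 for Ptgs2 (SE), so equal slopes were not shown. None of the 9 had an unadjusted p under 0.05 there, while 2345 of all genes did, and DESeq2 called 258 genes and none of those of the 9 to which it gave an adjusted p.

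On day 44, the conventional libraries with a score of 0 or 0.5 could be set against SPF mice by themselves. With these 8 libraries no gene of the table was called. Alox5 differed by 0.82 (edgeR adjusted p = 0.230), Alox5ap by 0.59 (adjusted p = 0.268), Ltb4r1 by 1.16 (adjusted p = 0.234) and Ptafr by 0.65 (adjusted p = 0.350), each in the same direction as with all 50 libraries. The 8 libraries are part of those 50 and were set against the same SPF libraries, so the shared direction is no separate evidence.

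Markers of neutrophils moved with the genes that rose. All 15 of 15 mature neutrophil marker genes, Csf3r, S100a8 and S100a9 among them, were higher in the second sampling, over the first-sampling days, against SPF on day 44 and with the score in both samplings. Their summed level had a median of 5390 CPM in the second sampling (652 to 27100) and 1870 in the first (531 to 20400). On day 44 it was 5500 CPM in conventional libraries (652 to 16500) and 1120 in SPF libraries (676 to 1130). It was highest among first samplings on day 23, with a median of 6090 CPM, the day on which Alox5, Alox5ap, Ltb4r1 and Ptafr were highest too. At a score of 3 in the second sampling it was 7320 CPM, at 2 it was 4180 and at 0 it was 1970.

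Over 190 libraries the Pearson correlation with that sum, on log2(CPM + 1), was 0.94 for Alox5, 0.87 for Alox5ap, 0.87 for Ltb4r1 and 0.84 for Ptafr. It was -0.25 for Lta4h and 0.34 for Ptgs1. The libraries share cohorts, samplings and scores, so these values only describe them. Within the 90 libraries of the second sampling the values were 0.85, 0.81, 0.81 and 0.58 in the same order, and within the first sampling 0.94, 0.83, 0.86 and 0.86. The sum of 8 basophil markers, in which Hdc leads with a median of 49.9 CPM and the basophil protease Mcpt8 has 1.58, gave values as high: 0.94 for Alox5, 0.88 for Alox5ap, 0.86 for Ltb4r1 and 0.87 for Ptafr over all libraries, and 0.87, 0.88, 0.81 and 0.67 within the second sampling. High correlations were thus seen with both sums, but the single basophil markers moved less evenly than those of neutrophils. Of the 8 basophil markers, 8 were higher over the first-sampling days, 4 in the second sampling and 1 on day 44. With the score, 1 was higher in the first sampling, and 1 was higher and 3 lower in the second. No fit held the basophil sum as a covariate. Ptgs1 was closer to the sum of the platelet markers, at 0.58 over all libraries, and Ptgdr2 to that of the eosinophil markers, at 0.51.

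In fits that held the summed neutrophil and eosinophil marker levels as covariates, most of the differences were no longer called. On day 44 Alox5 then differed by 0.12 (edgeR adjusted p = 0.873), Ltb4r1 by 0.01 (adjusted p = 0.995) and Ptafr by 0.26 (adjusted p = 0.765). Between the samplings Alox5 differed by 0.13 (adjusted p = 0.118) and Alox5ap by -0.01 (adjusted p = 0.940). Ptafr was the 1 gene still called there, higher in the second sampling by 0.31 (adjusted p = 5.98e-04). Over the first-sampling days Alox5ap was called in the other direction, at -0.14 per 10 days (adjusted p = 0.0420). Of the 9 genes none was called for either score slope in these fits. Most calls among all genes were lost in the same fits, so the loss was not particular to the 9 genes. The counts for all genes are given below, with the dependence on the processing. Other cells' markers moved as well. On day 44, 2 of 9 monocyte markers were higher and 1 lower, 4 of 9 tested eosinophil markers were higher and 6 of 9 T cell markers lower. Eosinophil markers went mostly the other way elsewhere. In the second against the first sampling 1 was higher and 5 were lower (median log2 difference -0.31). With the score in the second sampling 5 were lower and 0 higher (-0.20). All 9 tested B cell marker genes fell in the second sampling, on day 44 and with the score in the second sampling. Of 8 erythroid and globin genes, 7 were higher on day 44 (median log2 difference 1.99). In the second against the first sampling 8 were higher (0.66), and with the score in the second sampling 7 (0.33). Apart from the fits with neutrophil, eosinophil, globin and mitochondrial rRNA covariates, the part of these markers in the results was not tested.

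**Figure D5:**
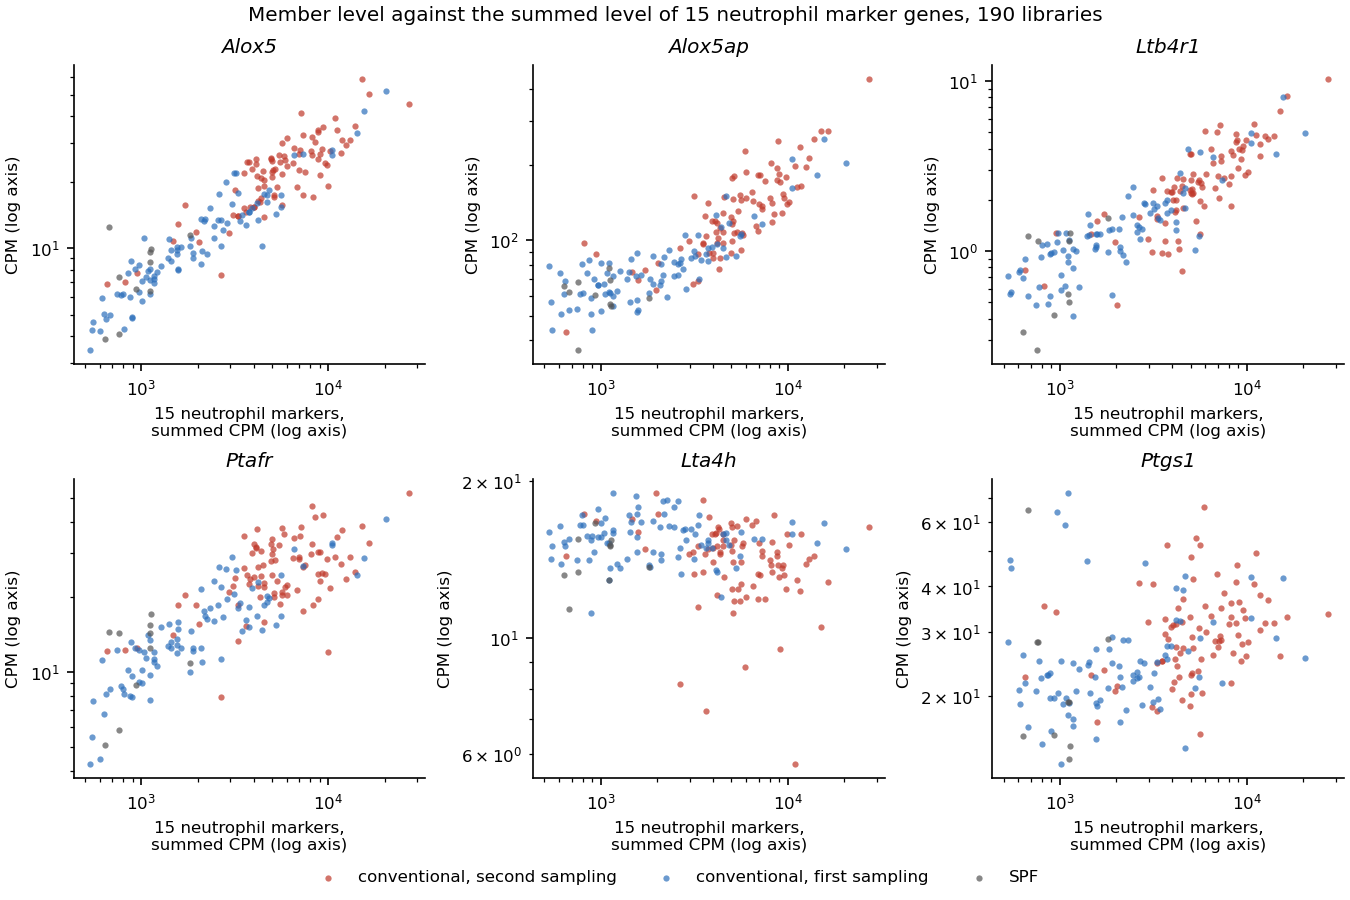
CPM of 6 genes (y axis, log) against the summed CPM of 15 neutrophil marker genes (x axis, log) in each of 190 libraries, coloured red for the second conventional sampling, blue for the first and grey for SPF. Alox5, Alox5ap, Ltb4r1 and Ptafr climb with the marker sum while Lta4h does not, with Pearson correlations of 0.94, 0.87, 0.87, 0.84 and -0.25.

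Other genes of these pathways were counted from a list of 41, of which 37 were tested. In the second against the first sampling 19 rose and 6 fell, with a median of 0.12, where 62.1% of all genes were called (31.4% higher and 30.6% lower). With both directions together, the called share of the list was close to that of all genes. In the list more rose than fell, while among all genes the directions were near even. The 4 with the smallest adjusted p were Lpcat2, which makes platelet-activating factor (1.11 ± 0.10, edgeR adjusted p = 2.49e-19), Ggt5, which turns leukotriene C4 into D4 (1.13 ± 0.11), Cyp4f18, which inactivates leukotriene B4 (0.88 ± 0.08), and Pla2g7, which breaks down platelet-activating factor (0.99 ± 0.09). On day 44 against SPF, 10 rose and 2 fell with a median of 0.37, where 19.7% of all genes were called, led by Lpcat2 (1.69 ± 0.28, adjusted p = 2.53e-05), Pla2g7 (1.68 ± 0.28), the prostaglandin E2 receptor Ptger2 (1.37 ± 0.29) and Ggt5 (1.31 ± 0.30). On day 16, where 0.473% of all genes were called, 2 of 37 rose: Alox15, a lipoxygenase of eosinophils (2.21 ± 0.41, adjusted p = 0.00806), and Cysltr1, a receptor of cysteinyl leukotrienes (1.40 ± 0.28, adjusted p = 0.0123).

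Over the first-sampling days 16 of the 37 rose and 10 fell, where 52.3% of all genes were called (26.5% higher and 25.8% lower), with Pla2g7 at 0.73 ± 0.06 per 10 days (edgeR adjusted p = 3.50e-18), Lpcat2 at 0.72 ± 0.07, Ptger2 at 0.70 ± 0.07 and Cyp4f18 at 0.49 ± 0.05. With the score in the second sampling 11 rose and 3 fell. Both directions together were near the 36.6% of all genes that were called, but all genes were near even by direction (18.9% higher and 17.7% lower). Hpgd, the dehydrogenase that inactivates prostaglandins, fell by 0.30 ± 0.05 on the log2 scale per point (adjusted p = 3.52e-06), while Ggt1 (0.58 ± 0.10), Cyp4f18 (0.29 ± 0.05) and Ggt5 (0.35 ± 0.06) rose. With the score in the first sampling 8 rose and 1 fell, where 10.0% of all genes were called, led by Lpcat2 (0.53 ± 0.11, adjusted p = 0.00153).

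Across 190 libraries and 10140 genes, the gene whose log2(CPM + 1) was most like that of Alox5 was Cyp4f18 (Pearson r = 0.97), followed by Sfxn5 and Pirb. For Alox5ap it was Prdx5 (0.96), with Slpi (0.94) and Upp1 (0.93) next. For Ltb4r1 it was Aacs (0.91), and for Ptafr it was Trpm2 (0.95), with Cd300lb and the neutrophil marker Csf3r at 0.94. The other genes had no such close match: Ptgs1 was nearest to Pde1c (0.77), Lta4h to Elovl5 (0.64), Ptgdr2 to P2ry14 (0.63) and the eosinophil marker Ccr3 (0.62), Ptgs2 to Fos (0.53) and Hpgds to Mnat1 (0.42).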

How the data were processed

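Whole-blood RNA of 190 libraries was analysed. Per the labels, total RNA libraries were made with a stranded kit that depletes ribosomal and globin RNA. The deposited tables hold expected counts and TPM per gene and library, made by the authors; the submitters' processing notes name DRAGEN and build GRCm39, and annotation release, strand setting and version were not given in the sources used here. Of the deposited count values 2.859% were not whole. They were rounded to whole numbers. All 190 count columns were used and 0 were left out. The deposited TPM served only to order genes by level and to give the range of group medians of some genes.

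The filter was filterByExpr with the 20 groups as design, a minimum count of 10 and a minimum total of 15, and counts were then scaled by TMM over all 190 libraries. Differences came from quasi-likelihood fits in edgeR 4.0.16 (R 4.3.3, limma 3.58.1), two-sided, Benjamini-Hochberg adjusted over all tested genes. The SE is the log2 difference divided by the square root of F. DESeq2 1.42.0 was an alternative, and the fits were tested on simulated data. Cohort was a term for second against first sampling and for the score slopes. Where replicate blocks made the second-against-first fit large, the dispersion trend was estimated on a subset of genes spread over abundance and interpolated. The members, the pathway and marker lists, the motifs and the tests were chosen with earlier results of these data known. All 10 members are described, but their single values are not all printed for every comparison. Other pathway genes are named only where called, at most 4 per comparison by adjusted p, and for each member the 3 most similar genes with a mean of at least 1 CPM were sought. No 2 libraries had identical counts. Promoter windows were matched by symbol and are on GRCm38.p6, not the build of the counts; no coordinates were converted.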

Additional observations from a re-analysis of the deposited data

Results flagged for a closer look

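In each of 180 combinations of gene and group, the highest or lowest library was set against its nearest neighbour on log2(CPM + 0.01), and 22 stood apart by Dixon's 95% criterion. Chance alone gives about 1 in 20 groups, and no cause was tested for any of them.

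Of the leukotriene genes, Alox5 was low at 7.56 CPM in replicate 7 of cohort 9, second sampling (next 15.4). Alox5ap was high at 161.8 CPM in replicate 1 of cohort 8 (next 84.7) and at 211.3 CPM in replicate 2 of cohort 9 (next 126.3), both first samplings. The same library of cohort 8 was high in Ltb4r1, at 4.34 CPM (next 2.00). Lta4h was low at 10.5 CPM in replicate 1 of cohort 6, second sampling, at 12.9 CPM in replicate 2 of cohort 5 and 12.0 CPM in replicate 9 of cohort 7, both first samplings, and at 11.4 CPM in SPF replicate 3 on day 44. Lower second-sampling libraries of Lta4h, with scores of 2 or 3, were not flagged. They were at 7.24 and 5.74 CPM (cohort 7, replicates 4 and 6), 8.17 and 9.53 (cohort 9, replicates 7 and 10) and 8.80 (cohort 1, replicate 4). The criterion can miss low libraries that lie close together. Their part in the fall of Lta4h was not tested. Ptafr was low at 8.81 CPM in SPF replicate 4 on day 44 (next 14.3).

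Ptgs1 had a single high library in 5 groups: 65 CPM in SPF replicate 3 on day 44 (next 19.2), 47.4 CPM in cohort 1, 45 in cohort 2, 46.9 in cohort 3 and 46.3 in cohort 6, each in the first sampling. The SPF library with 65 CPM had 3240 CPM of platelet markers, within the range of 2420 to 3490 CPM of that group.

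Ptgs2 stood at 6.23 CPM in SPF replicate 5 on day 16 (next 0.601), at 0 in replicate 4 of cohort 1 and replicate 7 of cohort 4, both second samplings, and at 0.0604 CPM in replicate 9 of cohort 9, first sampling. Hpgds was low at 0.0301 CPM in replicate 10 of cohort 3 and at 0.172 CPM in replicate 2 of cohort 5, both second samplings. Ptgdr2 was at 0 in SPF replicate 2 on day 16 and high at 0.609 CPM in replicate 9 of cohort 8, second sampling (next 0.233). These values of Hpgds and Ptgdr2 rest on few counts.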

How the results depend on the processing

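Over the alternatives tried for each of the 9 tested genes, 691 values of single genes stayed on the same side of the threshold, 58 lost the call, 9 gained it and 7 that were called in either fit changed sign. Among the 691, 46 that were called in neither fit also changed sign, 11 of them with both values over 0.1 in size, such as Hpgds between samplings within cohorts 6 to 9. The leave-out of single days and of cohort 7 was chosen after seeing the data. The cause was not tested where none is named.

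The number of the 9 genes called on day 16 (1, Ptgs2) was 0 with DESeq2 size factors, without a filter, with the replicate block and with marker sums as covariates, 2 (Alox5 and Ltb4r1) with globin and mitochondrial rRNA shares as covariates, and 0 to 1 when each SPF replicate was left out. On day 44 the count of 4 was 0 with marker sums, 0 with scores of 0 or 0.5 only, and 4 to 5 without single SPF replicates. The first-sampling trend (6) had 1 with marker sums, 0 within cohorts 6 to 9 and 4 to 6 without single days. Second against first sampling (7) had 1 with marker sums and 3 within cohorts 6 to 9. The second-sampling score slope (5) had 0 with marker sums and 0 within cohorts 6 to 9, and the first-sampling slope (3) 0 with marker sums and 0 without cohort 7.

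With marker sums as covariates these called values turned: Alox5ap on day 44 (-0.00), the trends of Alox5 (-0.00), Alox5ap (-0.14) and Ltb4r1 (-0.04), second against first sampling for Alox5ap (-0.01) and Ltb4r1 (-0.12), and the first-sampling score slope of Ltb4r1 (-0.12). Ptafr was called for the first-sampling slope by DESeq2 (0.25, adjusted p = 0.0292), and Hpgds between samplings by DESeq2 (-0.27, adjusted p = 0.0487).

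Among all genes, calls on day 16 were 86, against 463 with DESeq2, 53 with the block, 429 with globin and rRNA shares, 8 with marker sums and 27 to 35 without SPF replicate 2, 4 or 5. On day 44 they were 3585, against 1869 to 2343 without SPF replicate 2, 3 or 4 and 18 with marker sums, and without a filter the median of all genes moved to 0.17. The trend had 9518, against 6280 with globin and rRNA shares, 1188 with marker sums, 4229 within cohorts 1 to 4, 461 within cohorts 6 to 9 and 6317 at a score of 0. Second against first sampling had 11293, against 2315 with marker sums and 3627 within cohorts 6 to 9. The second-sampling slope had 6667, against 3065 with globin and rRNA shares, 26 with marker sums and 0 within cohorts 6 to 9. The first-sampling slope had 1825, against 534 with the block and 0 with marker sums or without cohort 7. The interaction had 0, against 50 with DESeq2, 34 with the block, 3 with marker sums and 1 with globin and rRNA shares, and the difference of slopes 0, against 258 with DESeq2 and 0.436% of 32335 genes without a filter.

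As a block, the replicate number left the first-sampling score slope of Ltb4r1 at 0.48 (adjusted p = 0.0855) and Ptgs2 on day 16 at -1.63 (adjusted p = 0.319), and changed no other call of the 9 genes. Same-numbered libraries correlated from -0.35 to 0.63 (median 0.05), 37 of 95 above 0.1, and 13 of 95 correlated best with their own number, so the numbers are no evidence of pairing. Ptgs2, Hpgds and Ptgdr2, at medians of 17, 19.0 and 5.00 counts, are the least precise.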

Other observations

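Among themselves, the genes fell into a close group and several loners, given here as Pearson correlations of log2(CPM + 1) over 190 libraries, which share cohorts and samplings. Alox5 and Ptafr were at 0.91, Alox5 and Ltb4r1 at 0.86, Alox5ap and Ltb4r1 at 0.86 and Alox5 and Alox5ap at 0.85. Within the 90 libraries of the second conventional sampling, Alox5ap and Ptafr were at 0.40, against 0.66 in the first sampling. Alox5ap was also close to the platelet marker sum, at 0.69, where Alox5 was at 0.33. Ptgs1 and Alox5ap were at 0.51. Hpgds and Alox5 were at -0.34, with -0.11 within the second conventional sampling and -0.45 within the first. Ptgs1 and Ptgs2, the pair of cyclooxygenases, were at 0.04.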
